A study of Mus musculus with 6 samples.

Results

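The genes described here encode the enzymes and 2 regulators of de novo fatty acid synthesis, the route by which a cell turns carbohydrate carbon into fat. They were chosen by name, as rows of the deposited annotation whose symbol is exactly Acly, Acaca, Fasn, Scd1, Scd2, Elovl6, Me1, Mlxipl, Thrsp or Acss2. Of these 10 genes, 9 had a transcript cluster (the array's gene-level probe set) with that symbol alone, 1 cluster each, among 21154 genes measured in this way. The cluster that carries Scd2 is annotated with a second symbol, Mir5114, so Scd2 is not reported.

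In this pathway citrate exported from mitochondria is cleaved to acetyl-CoA in the cytosol, acetyl-CoA is carboxylated to malonyl-CoA, and a large multifunctional synthase joins malonyl units into palmitate with NADPH as the reductant. Palmitate is then elongated and desaturated before it is esterified into triacylglycerol. In adipocytes the genes of the pathway are known to respond to insulin through SREBP1c and to glucose through ChREBP, and their transcripts become abundant as preadipocytes fill with lipid.

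The study measured 3T3-L1 preadipocytes, mouse cells in culture that become fat-storing adipocytes under hormones, on 6 Clariom S mouse arrays, 3 for cells given an extract of Tsuruazuki ("Tsuru") and 3 for cells without it (control), collected at day 9. Per the labels' protocol, cells of both groups were grown past confluence in DMEM with 10% serum and received IBMX, insulin and dexamethasone to start differentiation, the extract being present or absent, and were moved to insulin medium at day 3. Extract was diluted 1/1000 and 1/100 from a 100 mg/ml stock, and the labels do not say which dilution the arrayed cells received. The titles describe the controls only as kept in medium. The labels do not state whether replicates were grown separately, so a p-value here measures the spread of these samples alone and that spread may be technical. The question is whether cells differentiated with the extract carry other transcript levels than cells without it.

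With 3 arrays a group, precision is limited by their number, and the standard error of a difference had a median of 0.195 log2 units. Control replicate 1 stood apart, at 53.7 on the first principal component against -25.9 to 15.2 for the other arrays. Its 10 interferon response markers had a summed log2 signal of 15.70, against 10.79 to 12.61 on the Tsuru arrays. The lowest control sum, 11.14, lay inside that Tsuru range. All 8 adipocyte markers were bright (a mean log2 signal of at least 8), with a summed log2 signal of 19.27 to 19.59 with Tsuru and 19.02 to 19.33 without. Plin1 and Cfd were the 2 of 8 past the study's unadjusted threshold, both higher with Tsuru. That threshold, an unadjusted p under 0.05 with a fold above 1.1, was passed by 11.1% of all clusters. No marker passed adjustment over all clusters. Of 7 preadipocyte and fibroblast markers measured, 6 were bright, with summed log2 signals of 19.14 to 19.24 and 18.91 to 19.39 and 0 past the threshold. Of the macrophage markers, 6 of 7 averaged below the negative control sets, and their summed log2 signal was 7.85 to 8.12 with Tsuru and 8.10 to 8.99 without, with Lyz2 and Mrc1 past the threshold and lower. All 5 endothelial markers averaged below the background sets, at summed log2 signals of 5.81 to 6.15 and 6.07 to 6.17, and Cdh5 was past the threshold and lower. Of the skeletal muscle markers 4 of 5 averaged below the negative control sets, at 7.40 to 7.78 and 7.37 to 7.89, and Myog was past the threshold and lower. The part of these markers in the results was not tested. In RNA from whole cultures, fewer adipocytes and less RNA per adipocyte cannot be told apart.

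The promoters of 4 of the genes are shown because the means of Fasn and Acly leaned in opposite directions between the groups. Neither gene passed a test between the groups, so a divergence of Fasn and Acly is not shown. Whether the promoters bear on these leanings was not tested. All 4 genes also had replicate 3 as the highest array of each group, as described further on. They are from RefSeq on GRCm38.p6, each running from 250 bases before to 50 bases after the transcript start, at chr11:120824498-120824797 (minus strand), chr11:100527951-100528250 (minus strand), chr2:155517793-155518092 (plus strand) and chr3:129532136-129532435 (plus strand). Capitals mark matches on either strand to CCAAT, the NF-Y box, and to GGGCGG, the GC box bound by Sp1.
Fasn promoter: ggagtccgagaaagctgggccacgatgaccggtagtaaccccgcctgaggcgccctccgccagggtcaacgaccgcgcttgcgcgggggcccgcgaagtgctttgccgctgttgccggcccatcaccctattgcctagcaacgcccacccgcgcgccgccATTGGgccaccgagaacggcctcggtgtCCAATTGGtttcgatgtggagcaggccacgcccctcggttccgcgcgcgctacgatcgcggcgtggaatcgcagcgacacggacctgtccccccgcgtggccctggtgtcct
Acly promoter: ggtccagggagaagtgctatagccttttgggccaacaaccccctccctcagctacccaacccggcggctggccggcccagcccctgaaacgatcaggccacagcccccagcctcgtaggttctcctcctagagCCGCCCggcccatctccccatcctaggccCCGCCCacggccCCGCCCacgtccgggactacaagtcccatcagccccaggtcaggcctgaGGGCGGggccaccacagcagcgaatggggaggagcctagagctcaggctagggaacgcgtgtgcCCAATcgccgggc
Acss2 promoter: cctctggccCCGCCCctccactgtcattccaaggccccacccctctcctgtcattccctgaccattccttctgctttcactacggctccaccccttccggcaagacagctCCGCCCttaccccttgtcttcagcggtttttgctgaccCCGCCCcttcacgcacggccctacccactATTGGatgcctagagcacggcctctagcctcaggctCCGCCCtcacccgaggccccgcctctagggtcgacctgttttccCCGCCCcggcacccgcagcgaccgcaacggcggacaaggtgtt
Elovl6 promoter: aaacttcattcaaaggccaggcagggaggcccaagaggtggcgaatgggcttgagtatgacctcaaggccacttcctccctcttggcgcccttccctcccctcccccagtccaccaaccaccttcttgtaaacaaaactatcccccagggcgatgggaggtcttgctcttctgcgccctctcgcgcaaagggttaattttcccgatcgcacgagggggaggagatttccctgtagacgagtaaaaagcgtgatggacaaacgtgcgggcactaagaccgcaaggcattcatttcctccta

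Within these windows Fasn held CCAAT matches at positions -90, -62 and -59 from the start, the last 2 overlapping on opposite strands, and no GC box. Acly held GC boxes at -117, -88, -76 and -27 and a CCAAT match downstream of the start at 38. Acss2 held GC boxes at -241, -140, -102, -37 and 8 and a CCAAT match at -73, and Elovl6 held neither motif. Of all 32851 windows in the table, 37.4% held CCAAT and 35.7% held GGGCGG, so a match is common. CACGTG, the E-box (7.15% of windows), and TCACNCCAC, a form of the sterol element (1.24%), were found in none of the 4 windows shown. Neither were the carbohydrate response element in the form CACNNG, 5 free bases and CNNGTG (0.496%), the LXR element as AGGTCA, 4 free bases and AGGTCA (0.0152%), or the PPAR element as AGGTCA, 1 free base and AGGTCA (0.0396%). These are matches of letters only. The table held 8 of the 10 genes, without Scd1 and Scd2.

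No gene of the set passed a test between the groups. Tested with limma and adjusted by Benjamini-Hochberg over 22206 clusters, 0 of the 9 genes reached an adjusted p under 0.05, with adjusted p from 0.578 for Fasn to 0.982 for Thrsp, and the same held for all clusters, of which 0% were called. At the threshold of the series' methods, an unadjusted p under 0.05 with a fold above 1.1, 0 of the 9 were called, beside 11.1% of all clusters. The means of 6 genes were higher with Tsuru and those of 3 were lower. The median log2 difference of the set was 0.15, beside 0.00 over all clusters. Clusters with a mean log2 signal of at least 8 had a median of 0.12 themselves, with 67.7% of 6486 positive. Among the 7 genes of the set in that range, 6 were positive and the median was 0.17.

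**Figure D1:**
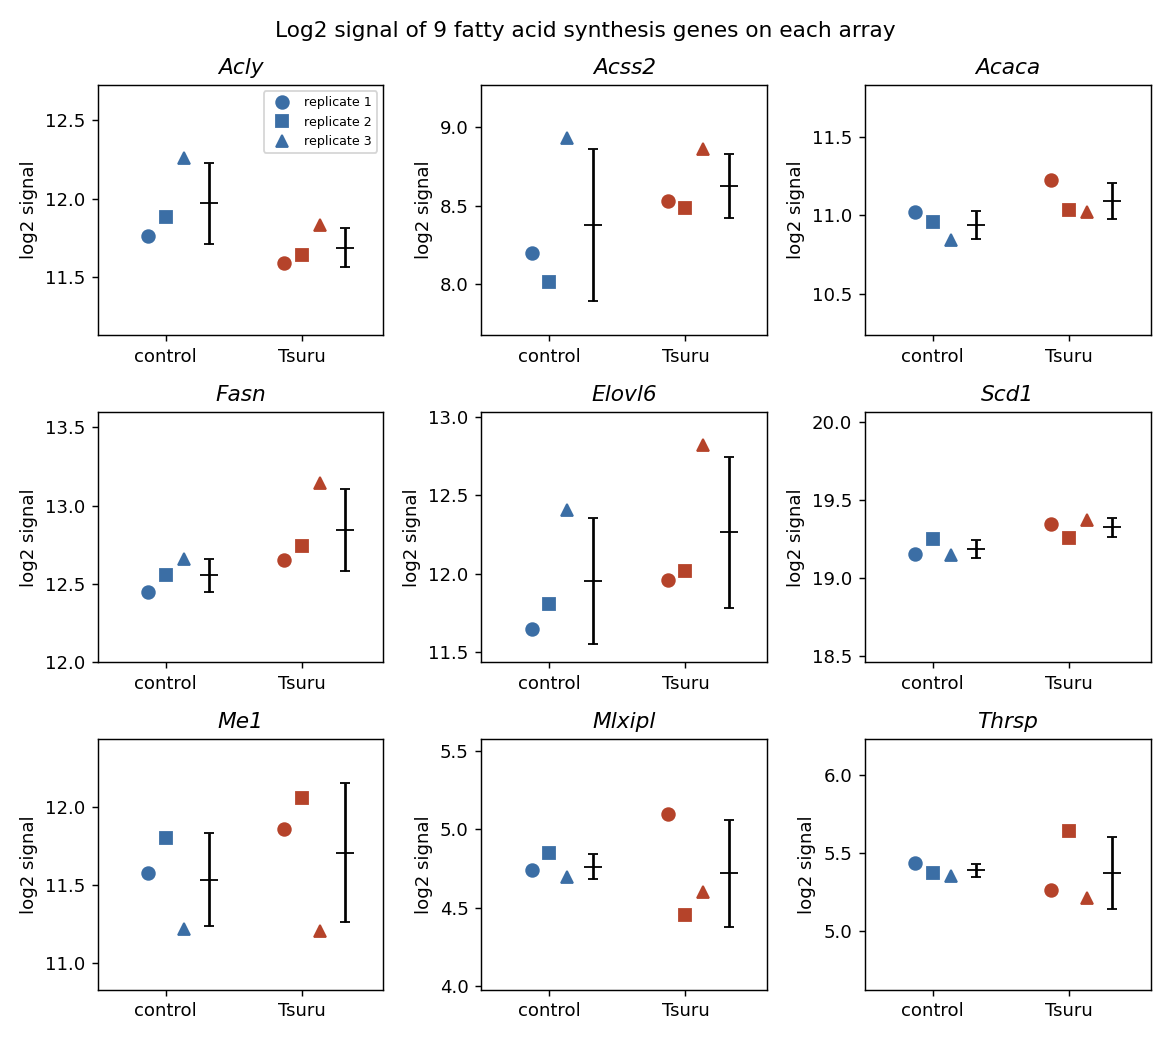
Log2 signal (y axis) of each gene on the 3 control arrays (blue) and the 3 Tsuru arrays (red), with the mean ± SD beside them. Marker shapes give the replicate number, and every panel spans the same range of log2 units. The groups overlap in every panel but that of Scd1, where the lowest Tsuru array, 19.26, lies just above the highest control, 19.25.

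Acly and Acss2 make cytosolic acetyl-CoA, Acly by cleaving citrate and Acss2 from acetate. Acly read 11.59, 11.64 and 11.83 on Tsuru replicates 1 to 3 and 11.76, 11.88 and 12.26 on control replicates 1 to 3. The controls thus reached higher, with 2 of them above every Tsuru array, but control replicate 1 lay inside the Tsuru range. The difference was -0.28 ± 0.18 (SE) on the log2 scale, a fold of 0.822 with a 95% interval from 0.618 to 1.09 (limma, adjusted p = 0.588), and without control replicate 3 it was -0.14 (limma, unadjusted p = 0.468). Acly was the only bright gene of the set with a lower mean with Tsuru, and 6.12% of bright clusters had a lower difference than it.

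Acss2 leaned the other way, with a wider spread. It read 8.53, 8.49 and 8.86 with Tsuru and 8.19, 8.01 and 8.93 without. Control replicate 3 was the highest of all 6 arrays, while the other controls were the lowest. The difference was 0.25 ± 0.25 (SE), with an interval from -0.30 to 0.80 (limma, adjusted p = 0.728). Acss2 moved with single arrays, to 0.06 without control replicate 2, 0.13 without Tsuru replicate 3, 0.15 without control replicate 1 and 0.52 without control replicate 3, where it passed the unadjusted threshold (limma, unadjusted p = 0.0253).

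Acaca encodes acetyl-CoA carboxylase 1, which makes malonyl-CoA and commits carbon to synthesis. It read 11.22, 11.04 and 11.02 with Tsuru and 11.02, 10.96 and 10.84 without. The lowest Tsuru array and the highest control were level, so the groups touched. The difference of 0.15 ± 0.16 (SE) had an interval from -0.20 to 0.51 (limma, adjusted p = 0.744), and it was 0.09 without Tsuru replicate 1.

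Fasn, the fatty acid synthase gene, had the smallest p of the set. It read 12.65, 12.74 and 13.15 with Tsuru and 12.45, 12.56 and 12.66 without. Tsuru replicates 2 and 3 lay above every control and Tsuru replicate 1 just below the highest. The difference was 0.29 ± 0.18 (SE), a fold of 1.22 with an interval from 0.920 to 1.62 (limma, unadjusted p = 0.146). Without Tsuru replicate 3 the difference of Fasn was 0.14 (limma, unadjusted p = 0.471). Of bright clusters, 75.4% had a smaller difference.

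Elovl6 elongates palmitate to stearate, and Scd1 introduces the double bond that makes palmitoleate and oleate. Elovl6 read 11.96, 12.01 and 12.82 with Tsuru and 11.65, 11.81 and 12.41 without. Replicate 3 was far above the other arrays in both groups, so the spread within a group exceeded the difference between them, 0.31 ± 0.28 (SE; limma, adjusted p = 0.694). Without Tsuru replicate 3 the difference of Elovl6 was 0.03, and without control replicate 3 it was 0.54.

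Scd1 read 19.35, 19.26 and 19.38 with Tsuru and 19.16, 19.25 and 19.15 without. It was the 1 gene of 9 whose groups did not overlap, beside 16.8% of all clusters and 19.5% of bright ones. Bright clusters with every Tsuru array above the controls, as in Scd1, made up 15.8%. Its pooled SD of 0.059 was smaller than that of nearly all bright clusters (1.13% had a smaller one). Scd1 also lay at the top of the brightness range, at percentile 100.0 of all clusters. Whether this limits its spread or its difference was not tested. The difference of 0.14 ± 0.15 (SE) had an interval from -0.20 to 0.49 (limma, adjusted p = 0.756). The standard error exceeds what this SD alone would give because limma shrinks each cluster's variance towards that of all clusters.

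Me1, the cytosolic malic enzyme gene, supplies NADPH to the synthase. It read 11.86, 12.06 and 11.21 with Tsuru and 11.58, 11.80 and 11.21 without. Replicate 3 was the lowest array in both groups, the reverse of Elovl6. The difference was 0.17 ± 0.25 (SE; limma, adjusted p = 0.824), and it was 0.00 without Tsuru replicate 2 and 0.43 without Tsuru replicate 3.

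Mlxipl and Thrsp, the regulators of the set, gave dim signals. Mlxipl encodes ChREBP, the glucose-responsive transcription factor, and Thrsp encodes Spot 14, a lipogenic protein induced by thyroid hormone and carbohydrate. Mlxipl read 5.10, 4.45 and 4.60 with Tsuru and 4.74, 4.85 and 4.70 without. Thrsp read 5.26, 5.64 and 5.22 with Tsuru and 5.44, 5.38 and 5.36 without. All 12 values lay below the means of the negative control sets, 5.75 to 6.01 by array, and those of Mlxipl were near the background sets at 4.51 to 4.62. The Tsuru arrays spread to both sides of the controls for each gene. The differences were -0.04 ± 0.20 (SE) for Mlxipl and -0.02 ± 0.17 for Thrsp and changed sign under other scalings, so no direction is given for either.

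**Figure D2:**
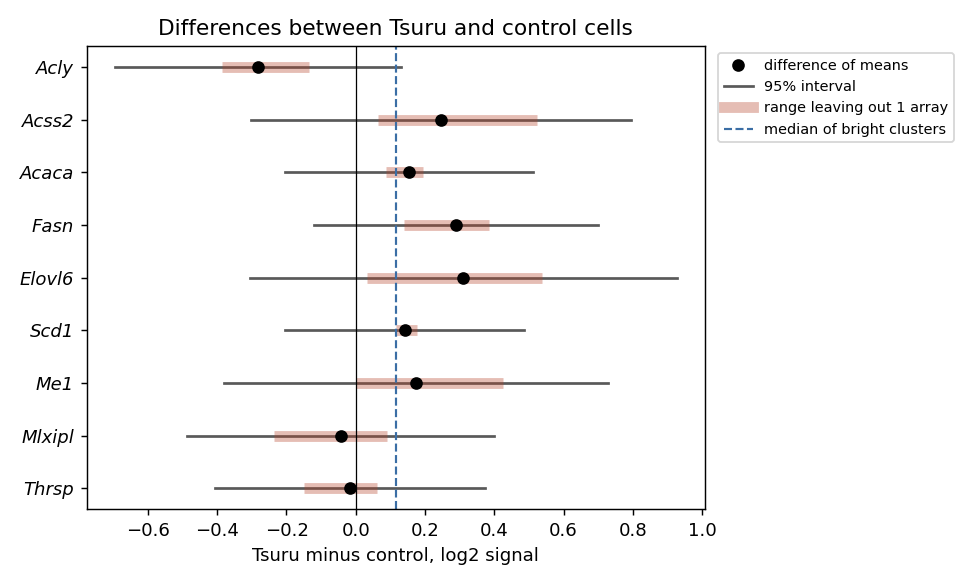
Difference of the log2 signal between Tsuru and control (x axis) for each gene, as the difference of means (points) with the 95% interval from limma (grey lines) and the range when each array is left out in turn (red bars). The dashed line is the median of bright clusters, 0.12. Every interval includes 0, and Acly is the bright gene to the left of it.

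Since Acly and the other bright genes leaned in opposite directions, 2 within-array differences were compared between the groups. These pairs were chosen by role with earlier results of these data known. They restate the opposite leanings within each array and do not compare levels. Fasn minus Acly was 1.06, 1.10 and 1.32 with Tsuru and 0.69, 0.68 and 0.40 without, a shift of 0.57 on the log2 scale, with 3 of 3 Tsuru arrays above every control. Acss2 minus Acly was -3.06, -3.16 and -2.97 with Tsuru and -3.57, -3.87 and -3.33 without, a shift of 0.53, again without overlap. Each had p = 0.1 in a two-sided exact permutation test (adjusted p = 0.1 over the 2 pairs), which is the smallest p that 3 against 3 arrays allow and does not reach 0.05. The difference from Acly separated the groups for 26.5% of all clusters and 44.3% of bright ones, so neither separation is particular to Fasn or Acss2, and unequal change of these genes is not shown.

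Apart from the groups, 4 genes shared the rank of replicate 3 within each group. Acly, Acss2, Fasn and Elovl6 each had their highest signal on replicate 3 in both groups, 4 of the 7 bright genes, beside 22.5% of bright clusters. Against its own 6-array mean, Elovl6 stood at 0.71 on Tsuru replicate 3 and 0.30 on control replicate 3, and Acss2 at 0.36 and 0.43. Acly stood at 0.00 and 0.43 and Fasn at 0.44 and -0.04, so in each of these 2 genes 1 of the replicate 3 arrays stood out and the other lay near the gene's mean. Acaca and Me1, both bright, had their lowest signal on replicate 3 in both groups, beside 14.1% of bright clusters, with Me1 at -0.41 and -0.40. Acaca stood at 0.00 and -0.17, and its Tsuru replicates 2 and 3 were nearly level, at 11.04 and 11.02. The dim gene Thrsp was lowest on replicate 3 in both groups too, but its controls spanned only 5.36 to 5.44. Among the adipocyte markers, 6 of 8 were also lowest on replicate 3 in both groups. Cfd, which encodes adipsin, stood at 0.86, 0.80 and -0.03 on Tsuru replicates 1 to 3 and at -0.44, -0.30 and -0.89 on the controls. Whether the numbers mark a shared culture or day is not stated in the labels.

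**Figure D3:**
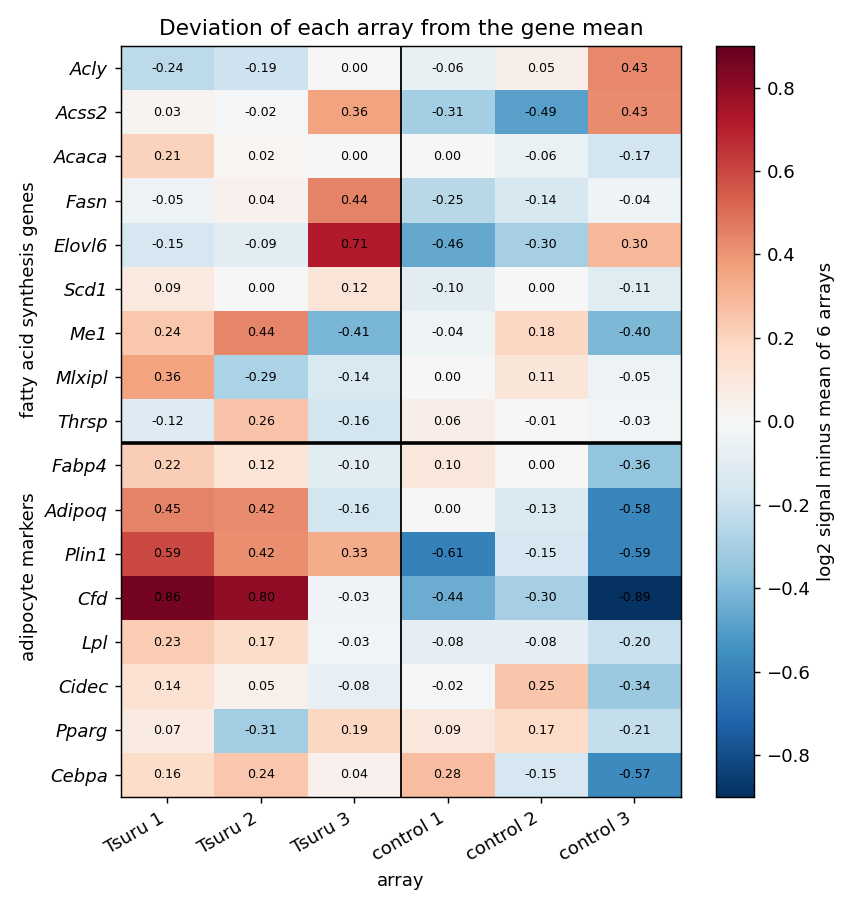
Deviation of each array from the gene's 6-array mean, in log2 units, for the 9 fatty acid synthesis genes (above the black line) and 8 adipocyte markers (below it). Red is above and blue below the mean, and each cell prints its value. Elovl6 and Acss2 are red on replicate 3 of both groups, where Me1 is blue.

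The spread within groups differed widely over the set. Pooled over both groups the SD was 0.444 for Elovl6, 0.378 for Me1 and 0.373 for Acss2, larger than those of 94.5%, 89.1% and 88.6% of bright clusters. Acaca (0.102) and Scd1 had tight replicates, and Acly (0.205) and Fasn (0.200) were near the median of bright clusters, 0.216.

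By the smallest root mean square difference of the array deviations, the genes most like Fasn over the 6 arrays were Atg9a (0.038 log2 units), an autophagy membrane protein gene, Ppp1r18 (0.051), Mterf3 (0.059), which acts on mitochondrial transcription, Tspan4 (0.064) and the transcription factor gene Rfx7 (0.066). The median over 5936 candidate genes was 0.267. Of the set, Scd1 was nearest to Fasn at 0.170 and Me1 farthest at 0.459. Acly lay at 0.31 from Fasn, above that median, and Elovl6 and Acss2 at 0.22 and 0.24, below it. The deviations were not scaled, so a gene that varied little can lie near Fasn without sharing its pattern. Scd1, with a pooled SD of 0.059, was such a gene, and a distance below the median does not by itself show likeness. With 6 arrays and this many candidates close matches are common, and they say nothing of shared function.

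The other genes of the pathway were read from 6 lists chosen by role, of which 52 of 57 genes had a cluster of their own. At the methods' threshold 5 were higher with Tsuru and 0 lower, or 9.62%, near the 11.1% of all clusters, and 0 passed adjustment over all clusters. By direction, 5.75% of all clusters were called higher and 5.38% lower. Among clusters with a mean log2 signal of at least 6, 992 of 1309 calls were higher, so calls of brighter clusters were mostly upward. The count of related genes past the threshold ran from 1 without Tsuru replicate 1 to 10 without control replicate 3, with 3 without Tsuru replicate 2 or control replicate 1. The median difference was 0.14 over the 52, of which 33 were bright, beside 0.12 for bright clusters and 0.00 for all. Of the 52, 36 were positive, beside 67.7% of bright clusters and 50.6% of all.

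None of 10 elongation genes passed, their median difference was 0.06, and the smallest p belonged to Elovl7, dim in both groups, at -0.34 ± 0.17 (SE; limma, unadjusted p = 0.08). Of 8 genes listed with the other desaturases 7 were positive, with a median of 0.23, and 1 passed, Cyb5a, whose cytochrome b5 carries electrons to desaturases. Cyb5a read 11.90, 11.95 and 11.67 with Tsuru and 11.50, 11.34 and 11.12 without, and the groups did not overlap. Its difference was 0.52 ± 0.18 (SE; limma, adjusted p = 0.374), and without Tsuru replicate 2 its unadjusted p in limma was 0.0545.

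Among 8 genes that set malonyl-CoA, 2 passed. Mid1ip1 encodes a Spot 14 relative that promotes polymerization of acetyl-CoA carboxylase. It read 7.85, 7.79 and 7.72 with Tsuru and 7.11, 7.34 and 7.57 without, with every Tsuru array above every control. The difference was 0.44 ± 0.18 (SE; limma, adjusted p = 0.411), and the call was lost without Tsuru replicate 1 or 2 or control replicate 1 or 2, with unadjusted p from 0.06 to 0.0955. Prkaa2, a catalytic subunit gene of AMPK, the kinase that inhibits the carboxylase, was at 0.53 ± 0.19 but both group means, 4.60 and 4.07, lay at or under the background sets. Leaving out Tsuru replicate 1 or control replicate 1 ended the call of Prkaa2 (limma, unadjusted p = 0.0887 and 0.0663).

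Of 10 genes for citrate export and NADPH supply, 1 passed. Me2, a mitochondrial malic enzyme gene, read 8.43, 8.45 and 8.22 with Tsuru and 7.19, 7.77 and 8.22 without. Control replicate 3 nearly met the lowest Tsuru array, and the difference was 0.64 ± 0.25 (SE; limma, adjusted p = 0.409). It was 0.37 without control replicate 1 and lost the call there, as it did without control replicate 2, Tsuru replicate 1 or Tsuru replicate 2 (limma, unadjusted p from 0.0523 to 0.0959).

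Of 10 genes of transcriptional control, Insig2 passed, which encodes a membrane protein that holds SREBP precursors in the endoplasmic reticulum. Insig2 read 8.94, 8.73 and 8.27 with Tsuru and 8.12, 8.16 and 7.84 without, without overlap. Its difference was 0.61 ± 0.21 (SE; limma, adjusted p = 0.374), and without Tsuru replicate 1 the unadjusted p in limma was 0.0709. None of the 6 genes of mitochondrial fatty acid synthesis and thioesterases passed. Ndufab1, the mitochondrial acyl carrier protein gene, had the smallest p there, at 0.40 ± 0.18 (SE; limma, unadjusted p = 0.0539).

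**Figure D4:**
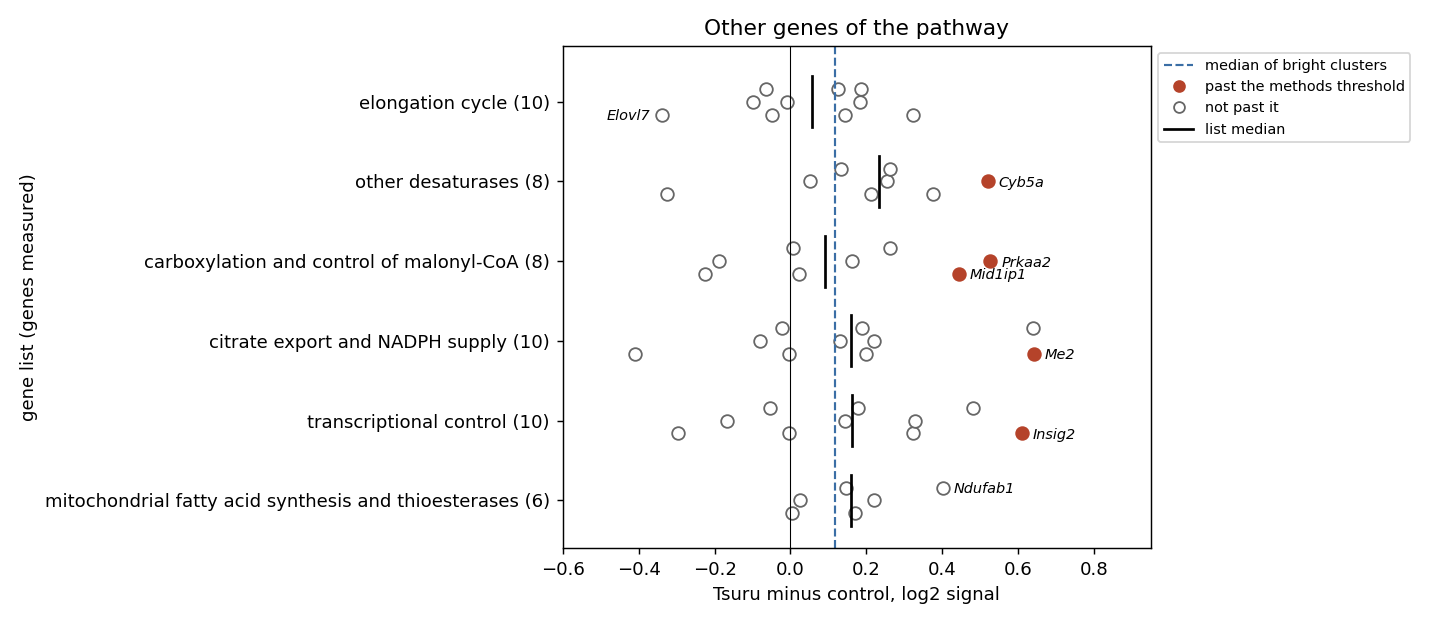
Difference of the log2 signal between Tsuru and control (x axis) for each gene of 6 lists of the pathway (rows, with the number of genes measured). Filled points passed the unadjusted threshold of the series' methods, black bars are list medians, and the dashed line is the median of bright clusters, 0.12. The 5 filled points all lie to the right of 0, where 5.75% of all clusters were called, beside 5.38% to the left.

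The authors' deposited table lists none of the 9 genes among its 2033 filtered rows. The fold changes in the authors' deposited table had the sign of the values computed here for the 7 bright genes, and all 9 ran from -1.21 for Mlxipl to 1.33 for Me1, with p-values from 0.1649 for Fasn to 0.7546 for Thrsp. For these genes the authors' deposited table gives 18 averages over groups, of which 5 lay outside the range of the 3 deposited arrays by more than 0.005. For Thrsp the authors' deposited table gives 4.84 with Tsuru and 5.04 without, below all 6 array values. The sources used here do not say how those averages were made.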

How the data were processed

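Transcript levels were read on 6 Clariom S mouse arrays, 3 per group, with groups and replicate numbers from the sample titles. The deposited value table holds log2 signals that the authors made with SST-RMA in Transcriptome Analysis Console 4.0.2, per the series design text. RMA and the same software stand in the submitters' processing notes. The authors' deposited table of the comparison gives log2 group averages, a signed linear fold change (treated here as a score, per the file headers), p-values and FDR p-values. Per the series design text these come from a variance analysis moderated by empirical Bayes. The clusters' genome build was not given in the sources used here. The 6640 control sets were left out. No 2 arrays shared more than 10 identical values.

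All clusters entered limma 3.58.1 under R 4.3.3 (lmFit, then eBayes without a trend), as Tsuru minus control, adjusted over all 22206 clusters with no filter on dim signals. A gene was its brightest single-symbol cluster over the 6 arrays. The permutation tests used scipy 1.17.1. The planned difference of Scd1 and Scd2 was not run, for want of an Scd2 cluster. The fit was tested on simulated data with known changes. Of 50 clusters changed by 0.5 log2 units, 0% reached an adjusted p under 0.05 and 80% passed the methods' threshold. For a change of 1.0 these were 24% and 96%. A lack of adjusted calls thus does not show a lack of changes of this size. Errors are SD over 3 arrays or moderated SE. The genes, lists and pairs were chosen with earlier results of these data known.

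Named were all genes of the set and, per related list, up to 3 genes past the methods' threshold with the smallest p, or else the 1 with the smallest p. The 5 genes most like Fasn had a mean log2 signal of at least 8 and were no predicted genes. Alternatives were quantile normalization, cyclic loess, array medians subtracted, a variance trend, array weights, a replicate block, a filter at log2 6, the mean over a gene's clusters, the authors' deposited table, and leaving out each array.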

Additional observations from a re-analysis of the deposited data

How the results depend on the processing

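Quantile normalization, cyclic loess and array medians subtracted gave Mlxipl 0.0557, 0.0227 and 0.0363 and Thrsp 0.081, 0.0291 and 0.063, with the sign reversed, and leaving out an array took Mlxipl from -0.235 to 0.089 and Thrsp from -0.151 to 0.0606. None of the other 7 genes changed sign in the alternatives run, but Me1 was 0.00 without Tsuru replicate 2 and 0.02 without control replicate 3, where it has no direction. In the same order of scalings the median of the 9 genes was 0.081, 0.0543 and 0.233 (0.21 in the authors' deposited table; 0.10 to 0.18 without 1 array), and that of bright clusters 0.02, 0.00 and 0.20. Of calls past the methods' threshold over all clusters 51.7% were higher with Tsuru, with 72.6% after array medians were subtracted, 45.3% with cyclic loess and 51.6% with quantile normalization. With cyclic loess 1 of the 9 genes passed that threshold, Acly at -0.40 (limma, unadjusted p = 0.0425), and leaving out 1 array gave 0 to 1, with the remaining alternatives at 0. Over all clusters the count was 2472, 1309 with the filter at log2 6 and 1659 to 3616 without 1 array. At an adjusted p under 0.05 no cluster passed, other than 25 without control replicate 3, none of them in the set. The related genes past the threshold numbered 5, 3 with cyclic loess, 8 with array weights and 1 to 10 without 1 array. Not all were higher in each alternative. Those higher with Tsuru were 2 of 3 with cyclic loess, 5 of 6 with quantile normalization and 6 of 7 with the variance trend. They were 7 of 8 with array weights and 8 of 10 without control replicate 3. In the other alternatives run for these genes, all were higher. Fasn minus Acly shifted by 0.48 to 0.62 and Acss2 minus Acly by 0.39 to 0.66 without 1 array. The deviations of same-numbered arrays of the groups had correlations of 0.0020, 0.0059 and 0.19, the last for replicate 3. Those of differently numbered arrays ran from -0.13 to 0.12. All were low, so the numbers were not taken as pairs, though the replicate 3 arrays had the highest. With the replicate block the 9 genes still had 0 calls, with a median of 0.15 (Elovl6 unadjusted p = 0.109 in limma), while 2775 clusters and 7 related genes passed. The causes of these shifts were not tested. Signals near background limit Mlxipl, Thrsp, Elovl7 and Prkaa2. The 95th percentile of the negative control sets was 9.37 to 9.88 by array. Every value of Acss2, Mid1ip1, Me2 and Insig2 lay below it, so these genes too lie within the spread of the negative controls.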
